A study of Mus musculus with 22 samples.

Results

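The genes described here are 9 that carry, store, modify or oxidise vitamin A in the mouse liver: Rbp4, Ttr, Lrat, Retsat, Adh1, Adh4, Rdh16, Aldh1a1 and Aldh1a7. They were chosen by name, and every probe set annotated to one of them alone was read, which gave 14 of the 45101 probe sets on the array and 9 of the 18194 genes it names. Ttr has 4 probe sets, Lrat and Retsat have 2 each, and the other 6 genes have 1. For a gene with several, the probe set with the highest mean was used and the others are given beside it. A further probe set is annotated to both Rdh16 and Rdh18-ps and was not used.

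The study profiled 22 mouse livers, 1 animal per array, to ask what loss of Trim24 does in liver and how much of it depends on Rara. Trim24 encodes a co-regulator that binds nuclear receptors, and Rara encodes the retinoic acid receptor alpha. There were 4 wild-type (WT) animals, 4 Trim24-/- animals and 4 Trim24-/- Rara+/- animals at 5 weeks of age, and 5 WT and 5 Trim24-/- animals at 14 weeks. Trim24-/- animals carry 2 disrupted Trim24 alleles in every cell, and Trim24-/- Rara+/- animals have lost 1 Rara allele as well. All 5 groups share a hybrid background of C57BL/6 (60%) and 129/Sv (40%), and which of the animals were littermates was not analysed here. RNA came from whole liver, so fewer cells of a type and less RNA per cell cannot be told apart.

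Vitamin A reaches the liver as retinyl esters, is taken up by hepatocytes and is stored as ester in the lipid droplets of stellate cells. Lrat makes the ester, and retinol leaves the liver bound to Rbp4, which circulates in a complex with Ttr. Retinol that stays in the liver can be oxidised to retinaldehyde by alcohol dehydrogenases such as Adh1 and Adh4 and by membrane-bound retinol dehydrogenases such as Rdh16, and retinaldehyde dehydrogenases such as Aldh1a1 turn retinaldehyde into retinoic acid, the ligand of Rara.

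Values are linear array signals as deposited. Their trimmed mean is the same on every array, so they were taken as already scaled, although the sources used here do not state the scaling. Differences are on the log2(signal + 16) scale, which understates changes of dim probe sets, and are given with the standard error of the limma fit. A gene was called when limma's Benjamini-Hochberg adjusted p over all 18194 genes was under 0.05. Array medians ran from 12.62 to 16.08 at 5 weeks, lower than the 19.68 to 25.92 of the 14-week arrays. The arrays at 5 weeks read Xist between 947.9 and 2169 and Eif2s3y, a Y-linked gene, below 6.6, whereas those at 14 weeks read Xist between 13.36 and 44.51 and Eif2s3y between 245 and 344.3. The labels give no sex, and age and sex cannot be told apart in any comparison across ages. Neither targeted allele was visible in its probe set. Trim24 read 316.9 ± 111.1 in WT and 363.4 ± 84.65 in Trim24-/- livers at 5 weeks (SD, n = 4 each), and since the sources do not say which stretch of the transcript this probe set reads, it does not check the labels. Rara read 12.27 ± 11.74 in WT livers, 13.7 ± 8.454 in those without Trim24 and 18.23 ± 9.97 in those that had also lost 1 Rara allele (SD, n = 4 each), near the pseudocount of 16.

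Between genotypes, none of the 9 genes passed the test at either age. In Trim24-/- against WT livers at 5 weeks 0 of 9 were called by limma, where 0.599% of all genes were, and 2 of 9 had an unadjusted p under 0.05. The counts were 0 of 9 in Trim24-/- Rara+/- against WT (0.055% of all genes called, and 1 member with an unadjusted p under 0.05), 0 of 9 in Trim24-/- Rara+/- against Trim24-/- (0.143%, and 1 member) and 0 of 9 in Trim24-/- against WT at 14 weeks (0.242%, and 0 members). Over all genes 10.8%, 7.44%, 11.5% and 8.23% had an unadjusted p under 0.05 in these comparisons, in the order given. When all 14 probe sets were tested among the 45101, limma called 0 of 14 in each of these comparisons, where 0.233%, 0.031%, 0.0643% and 0.124% of all probe sets were called. In the interaction of genotype and age, limma likewise called 0 of 9 members (0.033% of all genes) and 0 of 14 probe sets (0.0177%), with 0 at an unadjusted p under 0.05. Of all genes 6.39% had such a p there. The gene that stood furthest out was Retsat, which read about 0.697 times its WT signal in Trim24-/- livers at 5 weeks, with no overlap between the groups, and 1.51 times its Trim24-/- signal when 1 Rara allele was also missing.

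**Figure D1:**
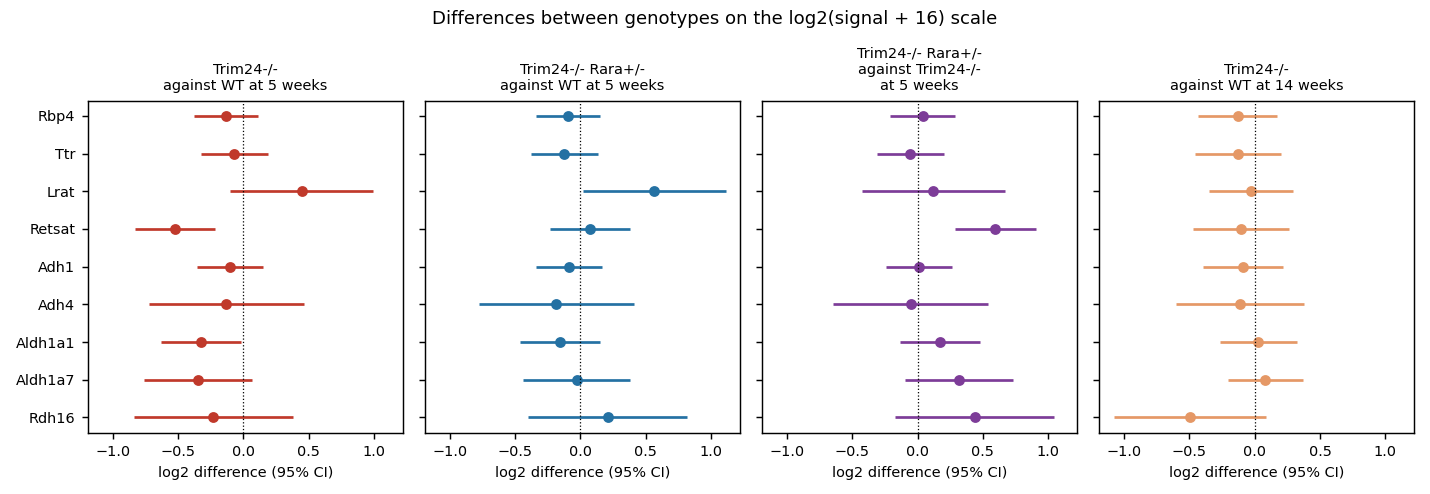
Log2 difference of each gene (points) with its 95% confidence interval from limma (bars) in the 4 genotype comparisons. Retsat is the gene whose interval lies wholly below 0 by the widest margin in the first panel (-0.83 to -0.21) and wholly above 0 in the third (0.29 to 0.90), and no gene passed the adjusted test in any panel.

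Of the carriers, Rbp4 transports retinol in plasma and Ttr is the larger protein that holds the Rbp4 complex in the circulation and also binds thyroxine. At 5 weeks the Rbp4 signal was 10040 ± 569.2 for WT, 9206 ± 1203 for Trim24-/- and 9416 ± 844.4 for Trim24-/- Rara+/- animals (SD, n = 4 each), and 8669 ± 1405 in WT and 7885 ± 1006 in Trim24-/- livers at 14 weeks (SD, n = 5 each). The groups overlapped in every comparison, with the lowest liver of Trim24-/- at 5 weeks at 7525 and the highest at 10160. Rbp4 differed by -0.13 ± 0.11 between Trim24-/- and WT at 5 weeks (adjusted p = 0.733 in limma) and by -0.13 ± 0.14 at 14 weeks (adjusted p = 0.864).

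Ttr was as even. Its signal at 5 weeks was 11110 ± 881.3 for WT, 10670 ± 1603 for Trim24-/- and 10180 ± 629.1 for Trim24-/- Rara+/- (SD, n = 4 each). At 14 weeks it was 10460 ± 1962 in WT and 9518 ± 1356 in Trim24-/- livers (SD, n = 5 each). Its genotype differences at 5 weeks ran from -0.13 to -0.06, each smaller than or close to its standard error of 0.12, and none of its 4 probe sets was called in a genotype comparison when every probe set was tested. The 95% interval for loss of Trim24 at 5 weeks ran from -0.38 to 0.11 for Rbp4 and from -0.32 to 0.19 for Ttr. Both genes, and Adh1, read between 5895 and 13120 on arrays whose highest signal was 17200.2, and whether such bright probe sets still respond in proportion was not tested.

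**Figure D2:**
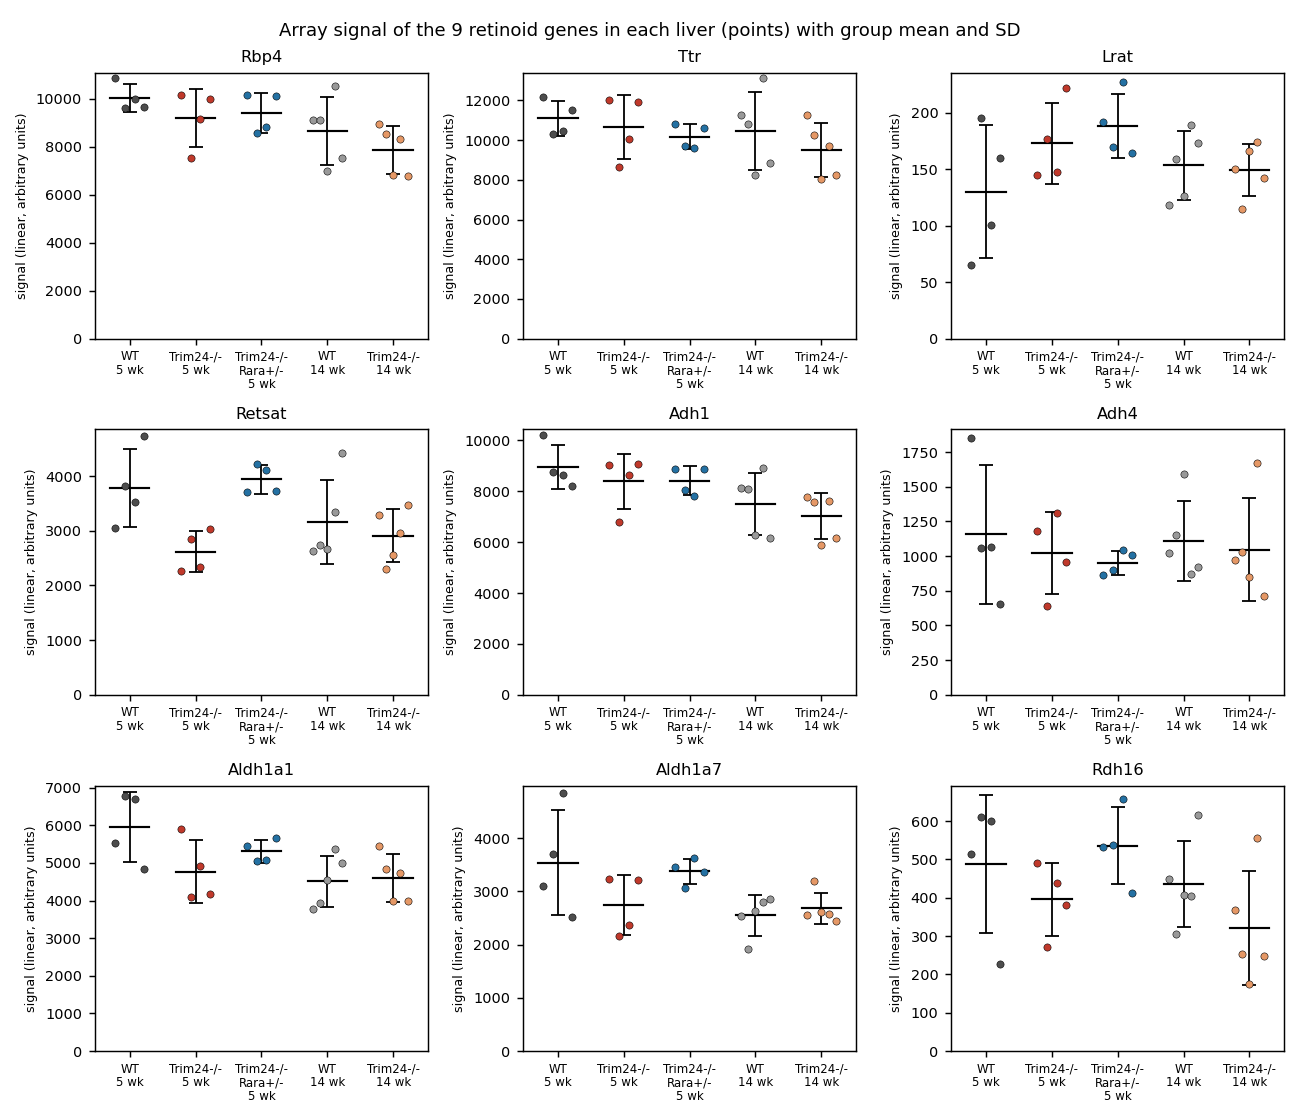
Linear array signal of each of the 9 genes in each liver (points), with the group mean (long bar) and SD (whiskers), for the 5 groups on the horizontal axis. Retsat is the panel in which the 4 Trim24-/- livers at 5 weeks (2257 to 3031) lie below all 4 WT livers (3045 to 4729) and all 4 Trim24-/- Rara+/- livers (3701 to 4224).

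Lrat esterifies retinol and is an enzyme of the stellate cell, a minor cell type of the liver. Its signal in the 4 WT livers at 5 weeks was 65.11, 195.6, 100.1 and 159.4. In Trim24-/- livers it was 145, 176.2, 147.7 and 221.9, and in Trim24-/- Rara+/- livers 191.3, 169.2, 226.7 and 164.5. Both mutant groups lay above the 2 dimmest WT livers but overlapped the WT range, which was the widest of the 3. The difference from WT was 0.45 ± 0.25 in Trim24-/- (adjusted p = 0.559 in limma) and 0.57 ± 0.25 in Trim24-/- Rara+/- livers (unadjusted p = 0.0432, adjusted p = 0.657). At 14 weeks Lrat was 153.2 ± 30.23 for WT against 149.3 ± 22.98 for Trim24-/- animals (SD, n = 5 each), which differed by -0.03 ± 0.15. Its other probe set read between 10.1 and 39.96 in the 22 livers, around the pseudocount, and differed by -0.01 between Trim24-/- and WT at 5 weeks, so it gave no second reading of the gene.

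Markers of the stellate cell were compared as a list of 20 genes, all of them measured. At 5 weeks their summed signal was 6184 ± 515 for WT, 7226 ± 2051 for Trim24-/- and 6993 ± 150.2 for Trim24-/- Rara+/- animals (SD, n = 4 each). The lowest and highest livers were 5717 and 6913 in WT, 5576 and 10140 in Trim24-/-, and 6839 and 7168 in Trim24-/- Rara+/-. Limma called 0 of the 20 in each genotype comparison, with 3, 2, 4 and 4 at an unadjusted p under 0.05 in the 3 comparisons at 5 weeks and the 1 at 14 weeks. In the same order 0.599%, 0.055%, 0.143% and 0.242% of all genes were called, and 10.8%, 7.44%, 11.5% and 8.23% had such a p. Among Trim24-/- livers at 5 weeks the highest Lrat and the highest stellate sum came from the same animal, 37. This also held among Trim24-/- Rara+/- livers, at 226.7 and 7168. Among WT livers the highest sum went with the lowest Lrat, at 5 weeks (6913 and 65.11) and at 14 weeks (6288 and 118.4). Among Trim24-/- livers at 14 weeks the highest of each came from different livers. The part of stellate cells in the Lrat values was not tested.

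Retsat, retinol saturase, reduces a double bond of retinol to give dihydroretinol and is abundant in liver. In the 4 WT livers at 5 weeks its signal was 3045, 3820, 3531 and 4729. In the 4 Trim24-/- livers it was 2257, 2841, 2335 and 3031, and in the 4 Trim24-/- Rara+/- livers 3701, 4224, 4110 and 3723. Every Trim24-/- liver was below every WT liver, although the highest of the former and the lowest of the latter nearly met, and every Trim24-/- Rara+/- liver was above every Trim24-/- liver while overlapping WT. Of the 9 genes, Retsat alone had groups that did not overlap in Trim24-/- against WT, where 5.52% of all genes were apart, and in Trim24-/- Rara+/- against Trim24-/-, where 8.46% were. In Trim24-/- Rara+/- against WT and in Trim24-/- against WT at 14 weeks the groups of 0 of 9 were apart, where 4.62% and 1.78% of all genes were.

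The Retsat difference between Trim24-/- and WT livers at 5 weeks was -0.52 ± 0.14 (95% interval -0.83 to -0.21, unadjusted p = 0.00289), which did not pass over all genes (adjusted p = 0.156 in limma, and 0.0909 to 0.365 over the alternatives tried). Between Trim24-/- Rara+/- and Trim24-/- livers it was 0.60 ± 0.14 (95% interval 0.29 to 0.90, unadjusted p = 0.00108, adjusted p = 0.11, and 0.0598 to 0.679 over the alternatives). Between Trim24-/- Rara+/- and WT livers it was 0.07 ± 0.14 (adjusted p = 0.941). The first and second of these share the Trim24-/- arrays, so a low reading there enters both.

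The second Retsat probe set is dimmer and was read separately. At 5 weeks it gave 1354 ± 575.6 for WT, 736.8 ± 155.6 for Trim24-/- and 1229 ± 88.01 for Trim24-/- Rara+/- animals (SD, n = 4 each). Trim24-/- livers overlapped WT here, with a highest value of 965.7 against a lowest of 809.1, and lay below all Trim24-/- Rara+/- livers, whose lowest value was 1106. Its differences were -0.80 for Trim24-/- against WT (unadjusted p = 0.00555, adjusted p = 0.273 over all probe sets in limma) and 0.74 for Trim24-/- Rara+/- against Trim24-/- (unadjusted p = 0.00836, adjusted p = 0.313). Both probe sets read the same livers and are not separate evidence of a change.

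At 14 weeks the Retsat signal was 2632, 2737, 2675, 3341 and 4420 in WT livers and 3289, 2297, 2549, 2954 and 3471 in Trim24-/- livers. The groups overlapped throughout, and 1 WT liver, at 4420, lay above the highest Trim24-/- liver. The difference was -0.11 ± 0.17 (adjusted p = 0.922 in limma), and the change in the genotype difference from 5 to 14 weeks was 0.42 ± 0.23 (unadjusted p = 0.081, adjusted p = 0.816), so a difference between the ages was not shown.

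The start of Retsat is printed because the gene stood furthest out among the 9. The sequence is the 250 bases before its RefSeq start in GRCm38.p6, on the plus strand at chr6:72598352-72598601, and the capitals mark TATAAA, which ends 24 bases before the start.
Retsat: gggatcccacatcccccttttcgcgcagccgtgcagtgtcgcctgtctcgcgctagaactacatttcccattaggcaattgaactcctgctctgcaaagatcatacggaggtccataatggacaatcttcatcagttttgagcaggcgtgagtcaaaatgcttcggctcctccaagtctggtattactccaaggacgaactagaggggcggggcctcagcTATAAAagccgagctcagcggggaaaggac
The letters TATAAA occur on either strand in 12.4% of 32851 RefSeq promoters of that length. Pairs of AGGTCA in the same direction with 5, 2 or 1 bases of any letter (N) between them, forms of the sites that retinoic acid receptors, RXRs and PPARs can bind, were searched on both strands and occur in 0.00913%, 0.00913% and 0.0335% of these promoters in that order. The search of the members covered 10 promoter entries of 8 genes, and Ttr was left out of it. None of these entries holds any of the 3, which says only that these exact letters are not in these windows. The single unit AGGTCA, which all 3 repeats contain, occurs in 14.0% of promoters, at 2 places before Adh4 and 1 before Rdh16. Retsat lies on chromosome 6 with Trim24, with 307 protein-coding genes between them, and what the disrupted allele's flanking DNA contributes there was not tested.

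Among fixed lists, genes of fatty acid oxidation and targets of the nuclear receptor PPARa were set beside Retsat. Of 19 measured, limma called 3 lower and 0 higher in Trim24-/- against WT livers at 5 weeks (0.599% of all genes called). In Trim24-/- Rara+/- against Trim24-/-, which shares the Trim24-/- arrays, it called 2 higher and 0 lower (0.143%). The list was chosen with earlier results of these data known. Cyp4a14, which hydroxylates the end of fatty acids, fell from 5356 ± 365.8 in WT to 3061 ± 531 in Trim24-/- livers (SD, n = 4 each, adjusted p = 0.0191 in limma) and read 5939 ± 355.9 in Trim24-/- Rara+/- livers. Acot1, an acyl-CoA thioesterase, read 741.6 ± 206.1, 238.7 ± 112.4 and 860.2 ± 145.8 in the same 3 groups, and was called in both comparisons. Ehhadh, a peroxisomal enzyme of beta-oxidation, fell by 0.76 on the log2 scale in Trim24-/- against WT livers (adjusted p = 0.0351). In the 14-week comparison limma called 0 of the 19 (0.242% of all genes), with 2 at an unadjusted p under 0.05 (8.23% of all genes). Against WT, Cyp4a14 kept its call in 18 of 25 alternatives, Acot1 in 16 and Ehhadh in 6, and all 3 lost it without WT animal 44 or 45 or Trim24-/- animal 8. Acot1 also lost it without Trim24-/- animal 1, and Ehhadh without any of 10 of the 12 arrays. Against Trim24-/-, Cyp4a14 kept its call in 17 of 25 and Acot1 in 14. Both lost it without Trim24-/- animal 8 or without Trim24-/- Rara+/- animal 54, 66 or 82, and Acot1 also without WT animal 45 or Trim24-/- animal 1.

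**Figure D3:**
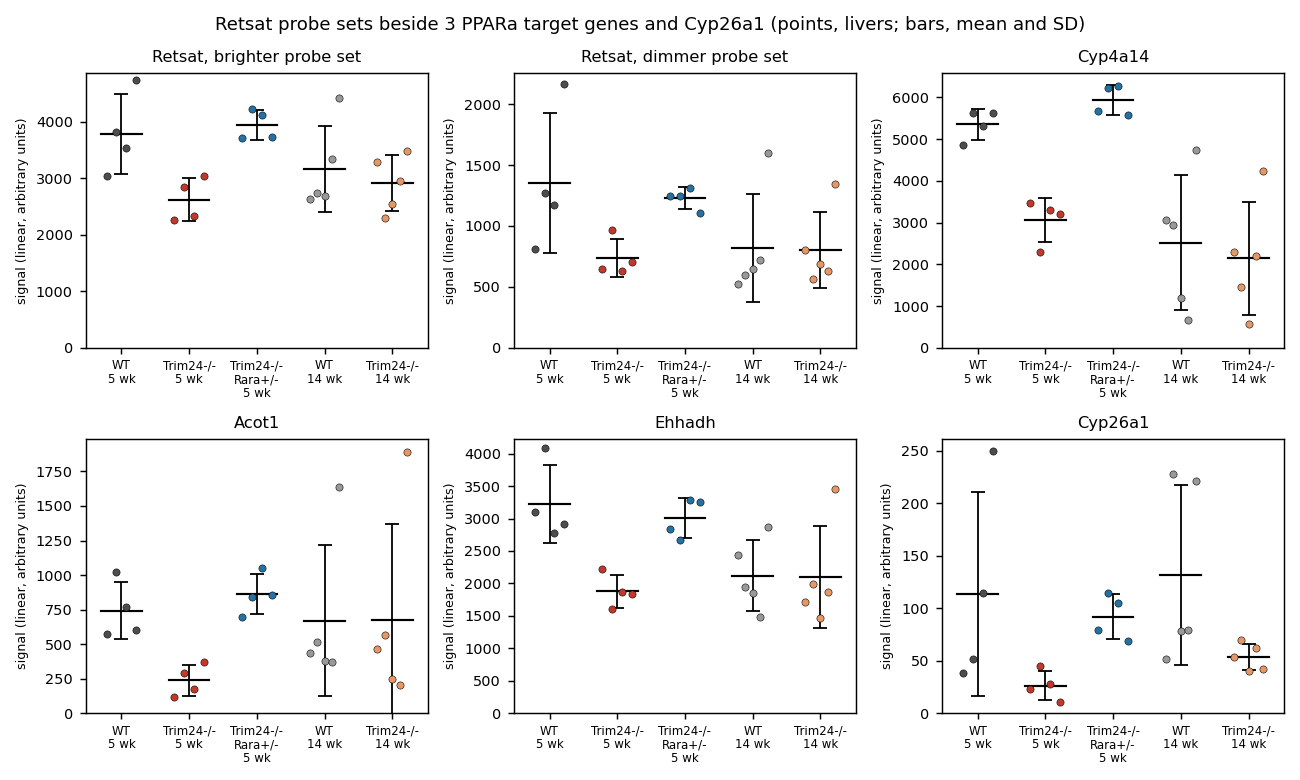
Linear signal in each liver (points) with group mean and SD (bars) for both Retsat probe sets, for 3 PPARa target genes and for Cyp26a1, over the 5 groups; one SD bar, for Acot1 in Trim24-/- livers at 14 weeks, is longer than its mean of 674 and ends at the axis. At 5 weeks the Trim24-/- livers are the lowest group in each panel, and at 14 weeks the 2 groups overlap in each panel. The 3 PPARa target genes are those of 19 measured that limma called lower in Trim24-/- against WT livers at 5 weeks. Of the 19, called or not, 17 were lower and 2 higher. Cyp26a1 was chosen after its values were seen. A low Trim24-/- group at 5 weeks was thus part of the choice of these genes, and their likeness to Retsat there is not a test.

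Of the retinol-oxidising enzymes, Adh1 is the abundant cytosolic alcohol dehydrogenase of hepatocytes. At 5 weeks its signal was 8952 ± 870.3 for WT, 8386 ± 1083 for Trim24-/- and 8410 ± 562.7 for Trim24-/- Rara+/- animals (SD, n = 4 each). At 14 weeks it was 7499 ± 1228 in WT and 7007 ± 904.1 in Trim24-/- livers (SD, n = 5 each). The groups overlapped, and its 4 genotype differences ran from -0.10 to 0.01 (adjusted p of 0.821 or above in limma).

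Adh4, another alcohol dehydrogenase, varied more between livers than between genotypes. At 5 weeks it read 1852, 1056, 1066 and 657.4 in WT livers and 1184, 636.6, 1312 and 955.2 in Trim24-/- livers. A WT liver was thus the highest, and the lowest WT and Trim24-/- livers nearly coincided. Trim24-/- Rara+/- livers were close together, at 861.5, 898.4, 1042 and 1007. The differences from WT were -0.13 ± 0.27 and -0.19 ± 0.27 (adjusted p = 0.911 and 0.924 in limma), with 95% intervals from -0.73 to 0.46 and from -0.78 to 0.41, so changes of that size were not detectable. At 14 weeks Adh4 was 1111 ± 289 in WT and 1047 ± 370.6 in Trim24-/- livers (SD, n = 5 each). Adh1 and Adh4 lie on chromosome 3 with Adh6a and Adh6b as the 2 protein-coding genes between them.

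Rdh16, a microsomal short-chain dehydrogenase that oxidises retinol and some steroids, had the widest spread within groups of the 9 genes, an SD of 0.473 on the log2 scale, above that of 96.3% of all genes. At 5 weeks it read 514.5, 610.9, 600.2 and 226.1 in WT livers, 490.5, 270.6, 439.6 and 381.6 in Trim24-/- livers and 533.1, 538.4, 658.3 and 412.8 in Trim24-/- Rara+/- livers. The lowest of the 12 was WT animal 90, so WT covered nearly the whole range. Rdh16 differed by 0.44 ± 0.28 between Trim24-/- Rara+/- and Trim24-/- livers (adjusted p = 0.608 in limma) and by 0.21 ± 0.28 between Trim24-/- Rara+/- and WT (adjusted p = 0.917), which becomes -0.11 without WT animal 90.

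At 14 weeks Rdh16 read 450.1, 306.6, 408.3, 403.4 and 614.7 in WT livers and 368, 254.1, 175.5, 556.9 and 248.9 in Trim24-/- livers. Of the Trim24-/- livers 3 were below every WT liver and 1 was the second highest of the 10. The difference was -0.50 ± 0.27 (95% interval -1.08 to 0.09, unadjusted p = 0.0883, adjusted p = 0.684 in limma), which did not pass.

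Aldh1a1 and Aldh1a7 are near-identical cytosolic aldehyde dehydrogenases. Aldh1a1 oxidises retinaldehyde to retinoic acid, and Aldh1a7 is a rodent copy of it with little activity on retinaldehyde. They lie next to each other on chromosome 19 with 0 protein-coding genes between them, and how far each probe set also reads the other transcript is not known from the sources used here, so their values are uncertain as separate readings. The 250 bases before a RefSeq start of each in GRCm38.p6 are printed because they show the likeness of the copies upstream of the transcripts. The capitals mark a run of 65 bases that is the same in both and ends 29 bases before each start, for Aldh1a1 at the second of its 2 starts, chr19:20601718-20601967 on the plus strand, and for Aldh1a7 at chr19:20727557-20727806 on the minus strand.
Aldh1a1: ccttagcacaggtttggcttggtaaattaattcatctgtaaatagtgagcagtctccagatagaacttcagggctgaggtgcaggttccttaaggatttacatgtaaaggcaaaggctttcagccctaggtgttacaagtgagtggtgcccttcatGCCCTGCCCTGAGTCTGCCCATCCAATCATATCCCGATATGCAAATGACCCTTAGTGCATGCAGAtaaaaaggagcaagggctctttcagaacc
Aldh1a7: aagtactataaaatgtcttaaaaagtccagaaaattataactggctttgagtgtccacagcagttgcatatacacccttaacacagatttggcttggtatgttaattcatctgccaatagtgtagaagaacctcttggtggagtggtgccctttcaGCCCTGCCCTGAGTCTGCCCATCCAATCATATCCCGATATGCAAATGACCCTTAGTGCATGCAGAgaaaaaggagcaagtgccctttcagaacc
Aligned end to end, the 2 windows were 65.7% identical, against 38.7% to 51.6% in the other 44 pairs of promoters of the members, Ttr left out. The window before the other Aldh1a1 start was among these pairs and was 50.9% identical to that of Aldh1a7, so the likeness was seen at 1 of the 2 starts. The run holds the octamer ATGCAAAT, which occurs on either strand in 1.6% of the 32851 promoters.

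Neither gene passed in a genotype comparison. Aldh1a1 read 5526, 6775, 6702 and 4850 in WT livers and 5912, 4085, 4922 and 4168 in Trim24-/- livers at 5 weeks, and between 5047 and 5664 in Trim24-/- Rara+/- livers. The 2 highest were WT and the 2 lowest Trim24-/-, with overlap between. Its difference between Trim24-/- and WT was -0.32 ± 0.14 (unadjusted p = 0.0404, adjusted p = 0.429 in limma).

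Aldh1a7 read 3096, 3700, 4840 and 2527 in WT livers, 3227, 2166, 2366 and 3220 in Trim24-/- livers and 3454, 3061, 3621 and 3366 in Trim24-/- Rara+/- livers at 5 weeks. WT spanned from the third lowest to the highest of the 12. Its difference between Trim24-/- and WT was -0.35 ± 0.19 (adjusted p = 0.546 in limma) and between Trim24-/- Rara+/- and Trim24-/- 0.32 ± 0.19 (adjusted p = 0.577). At 14 weeks the genotype differences were 0.03 ± 0.14 for Aldh1a1 and 0.08 ± 0.13 for Aldh1a7 (adjusted p = 0.98 and 0.923). The interaction of genotype and age was 0.35 ± 0.20 for Aldh1a1 and 0.43 ± 0.23 for Aldh1a7 (adjusted p = 0.82 and 0.814).

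Over all 9 genes, 8 were lower and 1 higher in Trim24-/- than in WT livers at 5 weeks, with a median of -0.13 where the median of all genes was -0.01. In Trim24-/- Rara+/- against Trim24-/- livers 7 were higher and 2 lower, with a median of 0.12 beside -0.01 over all genes, and at 14 weeks 7 of 9 were lower in Trim24-/- than in WT livers. Of all genes 47.9%, 47.3% and 50.3% were higher in these comparisons, in the order given, and of 13 general hepatocyte markers 3, 5 and 0 were. The member counts are of signs of differences that did not pass, and genes measured in the same livers are not independent.

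WT livers of the 2 ages differed more widely. Limma called 2 of 9 members in WT at 14 against WT at 5 weeks, both lower, where 28.3% of all genes were called and 8.63% were called lower. The share among the members was near the first of these and above the second, and it rests on 2 genes. Aldh1a1 fell from 5963 ± 937.1 (SD, n = 4) to 4520 ± 678.5 (SD, n = 5), with the 14-week livers at 3764, 3944, 4535, 5367 and 4988. The difference was -0.40 ± 0.14 (adjusted p = 0.037 in limma), and the groups overlapped, since 2 of the 5 older livers lay above the lowest of the younger.

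Aldh1a7 fell from 3541 ± 989.9 (SD, n = 4) to 2548 ± 379.5 (SD, n = 5), with the older livers at 2543, 1910, 2625, 2800 and 2862. The difference was -0.45 ± 0.16 (adjusted p = 0.0473 in limma), and 4 of the 5 older livers lay above the lowest of the younger. The other differences were -0.27 for Adh1 (adjusted p = 0.131), -0.27 for Retsat (0.22), -0.23 for Rbp4 (0.191), -0.10 for Ttr (0.603), -0.09 for Rdh16 (0.839), 0.00 for Adh4 (0.995) and 0.29 for Lrat (0.325). None of the 9 had groups without overlap, where 19.1% of all genes did.

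These age differences depended on how the arrays were brought to a common scale. The median difference of all genes was 0.13 as deposited, 0.01 after quantile normalisation and -0.20 after each array was centred on its median. Relative to the median of all genes, Aldh1a1 stood at -0.53 as deposited and at -0.24 after quantile normalisation, Aldh1a7 at -0.57 and -0.33, and Rbp4 at -0.35 and 0.04, so the sign for Rbp4 flipped. Neither Aldh1a1 nor Aldh1a7 passed after quantile normalisation (adjusted p = 0.234 and 0.138 in limma). Centring called 6 of 9 lower, with Rbp4 at -0.55, Ttr at -0.43, Retsat at -0.59 and Adh1 at -0.59 in addition. The call of both Aldh genes was also lost without WT animal 44 or 45 at 5 weeks, with a pseudocount of 1, and without any 1 of the 3 WT livers at 14 weeks that read 3764, 3944 or 4535 for Aldh1a1. The call of Aldh1a7 was the weaker one. It was lost in 19 of 32 alternatives, against 8 of 32 for Aldh1a1. Those that ended it for Aldh1a7 alone were the test of every probe set, the fit without WT animal 2 (adjusted p = 0.0525 in limma), and the fits without any 1 of 9 mutant arrays, which left the difference at -0.45 and gave adjusted p between 0.0506 and 0.0553.

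Hepatocyte markers were lower on average in the older WT livers, with overlap between the ages. The summed signal of 13 measured markers was 118100 ± 5515 in WT livers at 5 weeks (SD, n = 4) and 104600 ± 17380 at 14 weeks (SD, n = 5). The older livers summed to 115500, 112100, 87150, 123300 and 85120, and the younger ran from 111500 to 124100. Limma called 2 of the 13 lower and 0 higher, where 28.3% of all genes were called and 8.63% were called lower. Scaling each array to its hepatocyte markers, an alternative chosen after seeing the data, gave -0.23 for Aldh1a1 and -0.28 for Aldh1a7 (adjusted p = 0.311 and 0.276) and called 0 of 9 members. Summed markers of hepatocytes around the central vein were 49210 ± 4157 and 34040 ± 2622 in the same groups, with 7 of 14 called lower and 1 higher, and those around the portal vein 49180 ± 2698 and 43730 ± 6278, with 3 of 12 called lower. Of genes biased to one sex in liver, 12 of 14 male-biased were called higher and 12 of 15 female-biased lower at 14 weeks. The part of any of these in the member differences was not tested.

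When every probe set was tested, 3 of the 14 were called lower in WT at 14 against 5 weeks, where 23.3% of all probe sets were called and 5.7% called lower. They were the Aldh1a1 probe set and 2 of the 4 for Ttr. The 4 Ttr probe sets differed among themselves. The one used for the gene gave -0.10 (adjusted p = 0.625 over all probe sets in limma), and the others gave -0.51 (0.013), -0.36 (0.0429) and -0.38 (0.0597). The dimmer Retsat probe set gave -0.76 (0.0634), against -0.27 for the brighter one. How Ttr differed between the ages therefore depended on the probe set read.

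**Figure D4:**
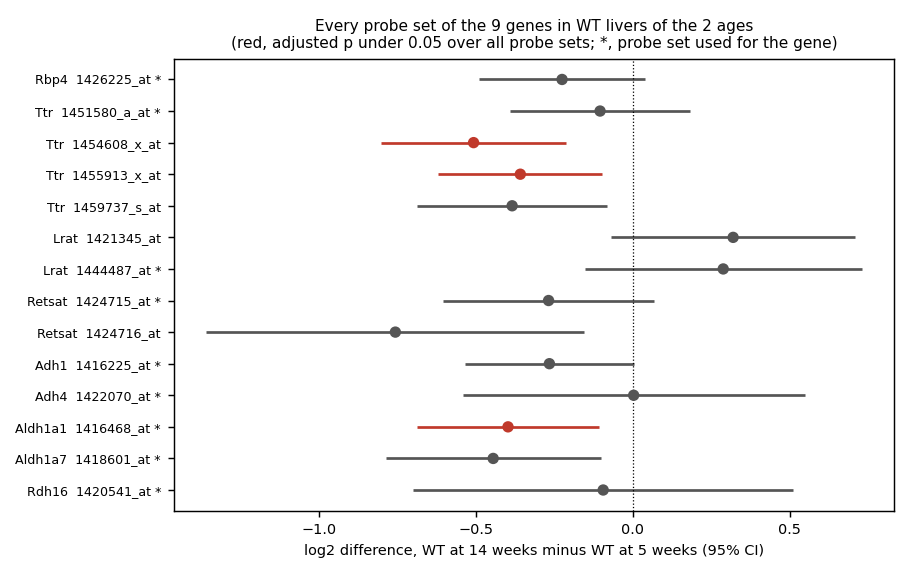
Log2 difference between WT livers at 14 and at 5 weeks (points) with its 95% confidence interval (bars) for each of the 14 probe sets, red where limma's adjusted p over all probe sets was under 0.05. The 4 Ttr probe sets lie between -0.51 and -0.10, and Lrat is the only gene with both probe sets above 0.

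Livers of one group did not vary together in all 9 genes. Rbp4, Ttr and Adh1 moved in parallel from liver to liver after the group means were subtracted, and so did the RNAs named next. Over the 22 arrays and 5878 other genes with a mean log2 level of at least 7, the RNAs most like Rbp4 were Selenop (Pearson r = 0.983, Spearman rho = 0.958), a plasma selenium carrier, and Apoa1 (r = 0.978, rho = 0.947). Those most like Ttr were Selenop (r = 0.973, rho = 0.937) and Hpx (r = 0.971, rho = 0.964), and those most like Adh1 were Apoa1 (r = 0.962, rho = 0.918) and B2m (r = 0.958, rho = 0.91). These points share arrays and their scaling, so the values describe the libraries.

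The enzymes followed other RNAs. Retsat was most like G0s2, an inhibitor of triglyceride lipolysis (r = 0.808, rho = 0.834), and Fpgs (r = 0.804, rho = 0.752). Aldh1a1 was most like Cyp4v3 (r = 0.871, rho = 0.885) and Glyat (r = 0.831, rho = 0.835), and Aldh1a7 like Agmat (r = 0.797, rho = 0.808) and Ndufa9 (r = 0.794, rho = 0.624), so the 2 copies had different nearest genes. Adh4 was most like Kat2b (r = 0.881, rho = 0.817) and Acbd5 (r = 0.878, rho = 0.89), Rdh16 like Tgds (r = 0.905, rho = 0.896) and Sirt3 (r = 0.897, rho = 0.864), and Lrat like Dnmbp (r = 0.697, rho = 0.618) and Angptl4 (r = 0.655, rho = 0.573). Lrat had the weakest nearest gene of the 9. All these are the highest of 5878 values over 22 arrays and are given as a description.

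**Figure D5:**
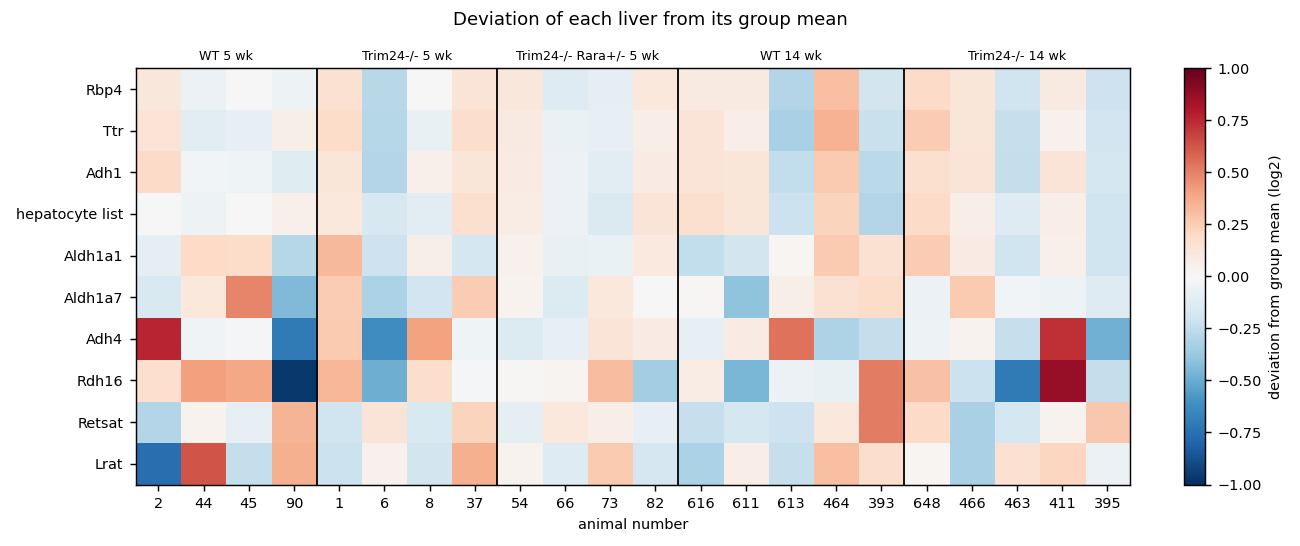
Deviation of each liver from its group mean on the log2 scale (colour, from -1 to 1) for the 9 genes and for the mean of the hepatocyte marker list, by animal number within the 5 groups. Rbp4, Ttr, Adh1 and the hepatocyte list change colour together from animal to animal, while Adh4, Rdh16 and Lrat hold the largest deviations.

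The Trim24-/- Rara+/- livers were more alike than those of the other groups at 5 weeks. Their coefficient of variation was the lowest of the 3 groups for 8 of 9 members, where it was the lowest for 43.7% of all genes, and its median over the 9 was 6.96%, against 18.7% in WT and 17.8% in Trim24-/- livers. Over all genes the median was also lowest in this group, at 22.7%, against 29.5% in WT and 27% in Trim24-/- livers. Pairs of arrays in this group correlated between 0.979 and 0.992, and pairs within the other 4 groups between 0.948 and 0.988. Adh4 was the clearest case, with an SD of 86.2 in Trim24-/- Rara+/- livers beside 500.2 in WT and 296.3 in Trim24-/- livers. No test of the spread was run.

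Other genes of retinoid uptake, binding, esterification and oxidation were read as a list of 48, of which 44 were measured. In each of the 4 genotype comparisons and the interaction limma called 0 of the 44, with 7, 6, 6, 4 and 3 at an unadjusted p under 0.05. In the same order 0.599%, 0.055%, 0.143%, 0.242% and 0.033% of all genes were called, and 10.8%, 7.44%, 11.5%, 8.23% and 6.39% had such a p. Between WT ages 8 of the 44 were called higher and 10 lower, where 28.3% of all genes were called and 8.63% were called lower. Rdh9, a retinol dehydrogenase of the Rdh16 family, fell by 1.73 on the log2 scale at 14 against 5 weeks (adjusted p = 0.000429 in limma), as Hsd17b13, a lipid droplet enzyme, fell by 0.70 (0.000613) and Rdh10, the retinol dehydrogenase needed in the embryo, fell by 0.60 (0.000901). Aox3, an aldehyde oxidase, rose by 1.16 (0.000141).

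Retinoic acid receptors, binding proteins and the hydroxylases that degrade retinoic acid made a list of 13, of which 12 were measured. Limma called 0 of the 12 in each genotype comparison and in the interaction, with 1, 1, 2, 2 and 1 at an unadjusted p under 0.05. In the same order 0.599%, 0.055%, 0.143%, 0.242% and 0.033% of all genes were called, and 10.8%, 7.44%, 11.5%, 8.23% and 6.39% had such a p. Limma called 2 of the 12 higher and 2 lower between WT ages, where 28.3% of all genes were called and 8.63% were called lower. Cyp26a1, which hydroxylates retinoic acid and is induced by it through the receptors, is described although it was chosen after its values were seen. It read 37.95, 51.3, 114.7 and 249.6 in WT livers, 22.54, 44.36, 27.58 and 10.37 in Trim24-/- livers and 79.17, 114.3, 105.3 and 68.83 in Trim24-/- Rara+/- livers at 5 weeks. Trim24-/- livers were the lowest group, overlapped WT and lay below all Trim24-/- Rara+/- livers. Its differences were -1.39 ± 0.41 for Trim24-/- against WT (adjusted p = 0.199 in limma) and 1.39 ± 0.41 for Trim24-/- Rara+/- against Trim24-/- (adjusted p = 0.193), which share the Trim24-/- arrays. At 14 weeks it differed by -0.91 ± 0.34 (adjusted p = 0.467).

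Markers of other liver cells were read beside the members. Of 18 macrophage markers Mpeg1 was called higher in Trim24-/- than in WT livers at 5 weeks, at 991.4 ± 262.6 against 293.2 ± 63.77 (SD, n = 4 each, adjusted p = 0.0275 in limma), and the summed signal of the list was 10500 ± 3711 and 7524 ± 2461. Of all genes 0.599% were called in that comparison. At 14 weeks all 18 read higher in Trim24-/- livers, with a median difference of 0.44 beside 0.0012 over all genes. Limma called 0 of them (0.242% of all genes), and 12 had an unadjusted p under 0.05 (8.23% of all genes). The summed signal was 8064 ± 1922 against 5671 ± 620.8 in WT (SD, n = 5 each), with overlap between the groups. Of 15 endothelial markers Ehd3 was called higher in Trim24-/- Rara+/- than in Trim24-/- livers (adjusted p = 0.0275), where the list summed to 5114 ± 277.2 and 3736 ± 632.3. In that comparison 0.143% of all genes were called. Mpeg1 kept its call in 17 of 25 alternatives and lost it without WT animal 2, 44 or 45 or Trim24-/- animal 1 or 8. Ehd3 kept its call in 15 of 25 and lost it without WT animal 45, Trim24-/- animal 1 or 8, or Trim24-/- Rara+/- animal 54, 66 or 82.

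One marker of hepatocytes around the central vein was called in both comparisons of Trim24-/- with WT. Of all genes 0.599% were called at 5 weeks and 0.242% at 14 weeks. Oat, which encodes ornithine aminotransferase, fell from 5525 ± 1641 in WT to 2274 ± 223.1 in Trim24-/- livers at 5 weeks (SD, n = 4 each, adjusted p = 0.0194 in limma) and from 3354 ± 180 to 1659 ± 200.9 at 14 weeks (SD, n = 5 each, adjusted p = 0.00152). The groups did not overlap at either age. In Trim24-/- Rara+/- livers Oat read 2941 ± 578 (adjusted p = 0.18 against WT). The call at 14 weeks held in 19 of 19 alternatives, and that at 5 weeks in 17 of 25, lost without WT animal 44 or 45 or Trim24-/- animal 1 or 8. The other 13 of 14 markers of that zone were not called in a genotype comparison. The same held for the 12 of the portal zone, the 13 general hepatocyte, 20 stellate cell, 7 cholangiocyte, 11 lymphocyte and 6 erythroid markers, with 0 to 4 of a list at an unadjusted p under 0.05. From 7.44% to 11.5% of all genes had such a p in the genotype comparisons. At 5 weeks the summed hepatocyte markers were 118100 ± 5515 for WT, 111500 ± 13080 for Trim24-/- and 110700 ± 8977 for Trim24-/- Rara+/- animals (SD, n = 4 each).

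Some genes with a known sex bias in liver also differed by genotype. Of 14 male-biased genes limma called 5 higher and 0 lower in Trim24-/- against WT livers at 5 weeks (0.599% of all genes called). In Trim24-/- Rara+/- against WT, which shares the WT arrays, it called 4 higher and 0 lower (0.055%). At 14 weeks 2 were called higher and 0 lower (0.242%). The list was chosen with earlier results of these data known, so these counts do not test sex-biased genes as a class. Cyp7b1, an oxysterol hydroxylase, read 456.4 ± 33.27 for WT against 2401 ± 657.1 for Trim24-/- and 2364 ± 265.3 for Trim24-/- Rara+/- (SD, n = 4 each, adjusted p = 0.000123 and 0.000113). C6, a complement component, rose by 2.83 and 2.77 in the same comparisons (adjusted p = 0.000275 and 0.000263). Both genes kept these calls in 25 of 25 alternatives. Obp2a was called at both ages, by 5.06 at 5 weeks (adjusted p = 0.0109, lost without WT animal 45) and 5.40 at 14 weeks (adjusted p = 6.02e-05), and Cyp2u1 by 2.48 and 1.05 (adjusted p = 0.00032 and 0.0249, the latter lost without any of 8 of the 10 arrays). Of 15 female-biased genes 1 was called in these comparisons, Sult2a2, a sulfotransferase, which fell by 2.75 in Trim24-/- against WT livers at 5 weeks (adjusted p = 0.0191, lost without WT animal 45 or Trim24-/- animal 8). Limma called 0 of 4 measured genes of the sex chromosomes in a genotype comparison, with 0 to 1 at an unadjusted p under 0.05 (7.44% to 11.5% of all genes). The part of other cell types or of sex-biased expression in the member values was not tested.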

How the data were processed

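The table that the authors deposited holds linear intensity for 45101 probe sets on 22 arrays. The mean after trimming 2% of values at each end was the same on every array. The sources used here do not name the software or genome build. Per the labels' protocols, 100 ng of total RNA was labelled with biotin after 2 rounds of amplification. No 2 arrays were identical (0 pairs). The number of arrays limits the precision. Groups and animal numbers came from the labels alone. Each array is 1 animal, and p-values measure the spread between these animals.

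Symbols came from a platform annotation that gives 1 symbol to 34958 probe sets, several to 932, and does not list 9211. Each of 18194 genes was represented by its brightest probe set on average. Values of log2(signal + 16) were fitted by limma 3.58.1 (lmFit, eBayes) under R 4.3.3 and data.table version 1.17.8, two-sided, with Benjamini-Hochberg adjustment over all genes. One model of the 12 younger arrays gave 3 comparisons, a model of the 10 older arrays gave 1, and a model of all 22 gave the interaction and the WT ages. A second set of fits covered every probe set. Python 3.11.15 with pandas 2.3.3, Biopython 1.88 and matplotlib 3.10.9 read the RefSeq promoter table (GRCm38.p6) and drew the plots. Fits were tested on simulated data.

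Named genes were the 9 members, up to 4 called genes of each list and comparison with the smallest adjusted p, and for each member the 2 genes most correlated with it. The members and lists were chosen with earlier results of these data known. Cyp26a1 falls outside the rule. Alternatives were quantile normalisation, centring, pseudocounts of 1 and 64, other probe set choices, brighter genes, a variance trend, other sets of arrays and each array left out.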

Additional observations from a re-analysis of the deposited data

Results flagged for a closer look

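Of the 45 combinations of the 9 genes with the 5 groups, 1 had a liver far from the rest of its group. In Trim24-/- livers at 14 weeks the highest Aldh1a7 signal was 3198, and the gap to the next liver made up 0.74 of the range of the 5, above the critical value of 0.71 for 5 samples. The other 4 livers read 2560, 2621, 2582 and 2445. Chance gives such a result in about 1 of 20 groups. The effect of Trim24 loss differed between the ages for 2 genes of the lists of sex-biased liver genes. C6 was 2.83 higher in Trim24-/- than in WT livers at 5 weeks and 0.30 at 14 weeks, an interaction of -2.52 on the log2 scale (adjusted p = 4e-04 in limma) that was called in 32 of 32 alternatives. Sult2a2 stood at -2.75 and 0.26, an interaction of 3.01 (adjusted p = 0.0127), called in 29 of 32 and lost with a pseudocount of 1 and without WT animal 45 or Trim24-/- animal 8 at 5 weeks. Sult2a2 read 6.39 ± 4.875 in WT and 10.93 ± 6.221 in Trim24-/- livers at 14 weeks (SD, n = 5 each), below the pseudocount of 16 on average. Age and sex cannot be told apart in either.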

How the results depend on the processing

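No paired analysis was possible because the groups compared share no animal numbers. Limma called 0 of 9 members in each genotype comparison and in the interaction under every alternative run, leave-one-out included. Between WT ages it called 0 after quantile normalisation, with a pseudocount of 1 or after hepatocyte marker scaling (chosen after seeing the data), 6 with arrays centred on their medians, 1 with every probe set tested, and 0 to 2 with an array left out. Counts over all genes were less steady. In Trim24-/- against WT at 5 weeks, 109 genes became 34 with a pseudocount of 1, 19 with only the 2 groups' arrays, 28 with animals 54, 66 and 82 averaged, 21 with animals 1 and 8 averaged, and 12 to 137 with an array left out (12 without WT animal 45, 14 without Trim24-/- animal 8). In Trim24-/- Rara+/- against WT, 10 became 19 with centring or brighter genes only, 23 with only the 2 groups' arrays, 31 with all 22 arrays, 28 without WT animal 90 and Trim24-/- animal 6, 5 and 6 with the averaged animals, and 6 to 22 with an array left out (22 without Trim24-/- animal 6). In Trim24-/- Rara+/- against Trim24-/-, 26 became 13 with quantile normalisation or centring, 0 and 55 with pseudocounts of 1 and 64, 102 with brighter genes, 52 with a variance trend, 5 with only the 2 groups' arrays, 101 with all 22, 51 without animals 90 and 6, 0 and 5 with the averaged animals, and 0 to 101 with an array left out (0 without Trim24-/- animal 8 or Trim24-/- Rara+/- animal 54, 66 or 82, and 101 without Trim24-/- animal 37). At 14 weeks 44 became 28 with a pseudocount of 1, 74 with brighter genes, 94 with all 22 arrays and 28 to 39 with an array left out (28 without the WT liver with Aldh1a7 at 1910 or the Trim24-/- liver with Aldh1a7 at 3198). The interaction gave 5 to 11 in place of 6 with an array left out (11 without Trim24-/- animal 6), and WT ages gave 10517 with every probe set, 3045 with brighter genes and 4281 to 5216 with an array left out, in place of 5147. Signs that turned were all of differences that were not called. Quantile normalisation gave Rbp4 0.023 and Ttr 0.0034 in Trim24-/- Rara+/- against WT, Ttr 0.012 in Trim24-/- Rara+/- against Trim24-/-, Ttr 0.011 and Adh1 0.018 at 14 weeks, Ttr 0.020 in the interaction, and Rbp4 0.049 and Ttr 0.18 between WT ages. Centring gave Aldh1a7 0.033 in Trim24-/- Rara+/- against WT, Rbp4 -0.038, Adh1 -0.034 and Adh4 -0.020 in the interaction, and Lrat -0.038 and Adh4 -0.32 between WT ages. Without WT animal 90 and Trim24-/- animal 6, Ttr was 0.045 in Trim24-/- against WT at 5 weeks, Rdh16 -0.11 in Trim24-/- Rara+/- against WT, Rbp4 -0.056 and Adh1 -0.086 in Trim24-/- Rara+/- against Trim24-/-, Rbp4 -0.074 and Adh1 -0.050 in the interaction, and Adh4 -0.23 between WT ages. Averaging gave Aldh1a7 0.0044 (Trim24-/- Rara+/- against WT), Adh1 -0.023 and Adh4 0.057 (against Trim24-/-), and hepatocyte scaling gave Ttr 0.063 and Rdh16 0.073 between WT ages. With an array left out, signs turned within these ranges. For Trim24-/- against WT at 5 weeks they were -0.13 to 0.027 for Ttr and -0.37 to 0.12 for Adh4. For Trim24-/- Rara+/- against WT they were -0.023 to 0.19 for Retsat, -0.42 to 0.068 for Adh4, -0.18 to 0.13 for Aldh1a7 and -0.11 to 0.34 for Rdh16. For Trim24-/- Rara+/- against Trim24-/- they were -0.056 to 0.089 for Rbp4, -0.15 to 0.0035 for Ttr, -0.086 to 0.053 for Adh1 and -0.26 to 0.081 for Adh4. At 14 weeks they were -0.10 to 0.054 for Lrat, -0.17 to 0.023 for Retsat, -0.29 to 0.025 for Adh4, -0.036 to 0.094 for Aldh1a1 and -0.019 to 0.13 for Aldh1a7. In the interaction they were -0.091 to 0.077 for Rbp4, -0.15 to 0.028 for Ttr, -0.091 to 0.073 for Adh1, -0.23 to 0.26 for Adh4 and -0.49 to 0.053 for Rdh16. Between WT ages they were -0.23 to 0.26 for Adh4 and -0.42 to 0.042 for Rdh16. Where a call or count moved, the cause was not tested. Retsat kept its sign in both of its genotype comparisons described above under every alternative, from -0.66 to -0.41 and from 0.53 to 0.67.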
